A study of Mus musculus with 4 samples.

Results

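Immunoglobulin variable segment rows are the rows of the array's gene table that stand for single V segments of the antibody genes. They were taken as every gene row whose name, in upper case, began with IGKV, IGHV or IGLV, which gave 73 of 30854 gene rows. Of these, 53 were heavy chain (IGHV) rows and 20 kappa light chain (IGKV) rows, and the number of lambda (IGLV) rows under such names was 0. Each array measured LSK cells, the bone marrow fraction without lineage markers and with Sca-1 and Kit that holds stem cells and early progenitors. The knockout group was 2 pools (replicates 1 and 3) from B-myb floxed-MxCre mice, in which the floxed B-myb gene, now named Mybl2, is removed by a Cre recombinase driven by the interferon-responsive Mx promoter. The control group was 2 pools (replicates 1 and 2) from mice labelled control, with no allele given. All mice were of the C57BL6/J strain, 12 to 16 weeks old, and had received pIpC 1 week before harvest, so knockouts and controls shared that interferon-inducing treatment. Each pool held 3 to 5 mice. Mx-Cre acts in many interferon-responsive cell types, so the deletion is not limited to LSK cells.

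An antibody chain is made when a B cell precursor joins a V segment to D and J segments in the heavy chain locus, or to a J segment in a light chain locus, through the RAG recombinase. The joined V segment is then transcribed together with a constant region, so V transcripts are abundant in B cells and plasma cells, and unjoined segments can also be transcribed at a low level as sterile transcripts. LSK cells are not B cells, although their lymphoid-primed members already express some genes of the B lineage. Segments of a family are close in sequence, and the probe sequences were not given, so a row may also report related segments and is uncertain as a measure of the segment it names. In bulk RNA from sorted cells, fewer cells of a type and less RNA per cell cannot be told apart.

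Background and detection differed between the 4 arrays. The negative control probes, which match no mouse transcript, had a median signal of 94.4 and 99.9 on knockout replicates 1 and 3 and of 86.7 and 80.7 on control replicates 1 and 2. Over all gene rows, 34.9% and 28.5% were detected on the knockout arrays and 39.9% and 43.6% on the control arrays. A row is called detected where its deposited detection p was under 0.05, a limit that 4.59% to 4.91% of the 936 negative control probes passed. Mybl2, the targeted gene, had a signal of 162.2 and 146.5 in the knockouts and 292.4 and 168.2 in the controls, and its log2 change of −0.18 ± 0.28 (SE, 2 arrays per genotype) did not pass the test over all gene rows (limma, adjusted p = 0.777). The position of its probes was not known, so this value says nothing about the deletion, and each genotype is taken from the labels.

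Most variable segment rows had no signal above background, and detection was lower on the knockout arrays. Of the 73 rows, 14 (19.2%) were detected on knockout replicate 1 and 11 (15.1%) on knockout replicate 3, against 19 (26.0%) on control replicate 1 and 28 (38.4%) on control replicate 2. All 4 shares lay below the shares over all gene rows on the same arrays, which were also lower on the knockout arrays. The knockout counts did not overlap the control counts, and an exact permutation test over the 4 arrays gave a two-sided p of 0.333, the smallest that 2 arrays against 2 can give. With a detection p under 0.01 the counts were 11 and 4 in the knockouts and 15 and 22 in the controls.

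Among the heavy chain rows the detection counts did not overlap between the genotypes, as was also the case for all gene rows. IGHV rows were detected in 9 and 5 cases on the knockout arrays and in 16 and 19 on the control arrays. IGKV rows were detected in 5 and 6 cases on the knockout arrays and in 3 and 9 on the control arrays, so the kappa counts of the genotypes overlapped. As a comparison, the 18 rows for T cell receptor variable segments, which carry names of the same form, were detected in 1 and 0 cases in the knockouts and in 3 and 1 in the controls.

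**Figure D1:**
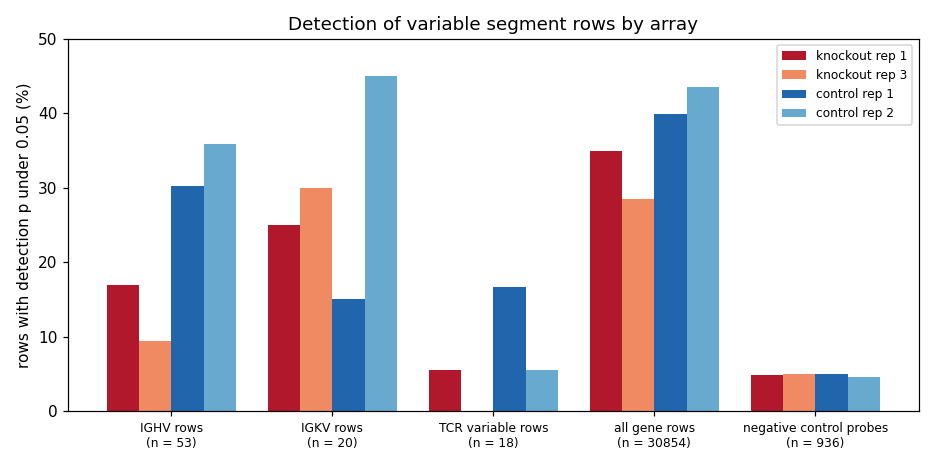
Share of rows with a detection p under 0.05 (vertical axis, percent) on each array, for IGHV rows, IGKV rows, T cell receptor (TCR) variable rows, all gene rows and negative control probes. Of the 53 IGHV rows, 9 and 5 are detected on the knockout arrays and 16 and 19 on the control arrays, and the negative control probes stay under 5% on each array.

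By array, 39 rows were detected on no array, 12 on 1, 11 on 2, 6 on 3 and 5 on all 4. The number of rows detected on both knockout arrays was 7 and on both control arrays 17. 8 rows were detected on both control arrays and on no knockout array, and 0 rows showed the opposite pattern. Over all gene rows these patterns were held by 4.69% and 0.263%, so the first was the more common one there too. The 39 rows detected nowhere had signals from 84.9 to 99.8 on knockout replicate 1 and from 86.7 to 108.1 on knockout replicate 3, against 81.5 to 93.1 on control replicate 1 and 76.0 to 84.4 on control replicate 2.

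The 12 rows detected on a single array lie just outside the group whose signals are described below. 3 of them were detected on knockout replicate 1, 1 on knockout replicate 3, 2 on control replicate 1 and 6 on control replicate 2. IGKV2-137 had 134.7 on knockout replicate 3 and 98.3 on knockout replicate 1, against 93.0 and 84.4 on the control arrays. IGKV4-71 had 90.8 and 97.6 in the knockouts, against 82.7 on control replicate 1 and 134.6 on control replicate 2. Each of these signals stood above background in a single pool of mice.

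The 22 rows detected on at least 2 arrays were 16 IGHV and 6 IGKV rows. The IGHV1 family, the large family also called J558, supplied 11 of them out of its 38 rows, IGHV8 2 of 2, and IGHV5, IGHV10 and IGHV12 1 each. The remaining heavy chain families on the array, IGHV2, IGHV6, IGHV7, IGHV9, IGHV13, IGHV14 and IGHV15, had 1 row each and 0 detected on at least 2 arrays. Among kappa families, IGKV9 had 2 of 2 such rows, IGKV4 1 of 7, IGKV1 1 of 2, and IGKV3 and IGKV8 1 of 1.

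Of the 20 IGKV rows, 19 matched a RefSeq gene by symbol, and RefSeq classes 15 of these as V segments and 4 as V segment pseudogenes. Rows detected on at least 2 arrays included 4 of the 15 V segments and 2 of the 4 pseudogenes, IGKV9-128 and IGKV8-31. Ordered along the kappa locus from the V segment farthest from the joining segments, the 6 rows were at places 2 (IGKV9-128), 4 (IGKV9-120), 10 (IGKV1-88), 14 (IGKV4-73), 17 (IGKV8-31) and 19 (IGKV3-2) of 19, so they spanned the locus. The heavy chain rows carry names with an S, which mark sequences not assigned to a place in the locus, and 0 of 53 matched a RefSeq symbol.

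IGKV9-128 had the largest difference among the kappa rows. Its signal was 143.9 ± 5.54 and 142.0 ± 5.84 in the knockouts, against 532.8 ± 31.8 and 1505.1 ± 77.6 in the controls, where the error is the standard error over the beads of 1 array. The knockout arrays were alike, both controls were higher, and control replicate 2 was above control replicate 1. On the normalized log2 scale the values were 6.36 and 6.50 in the knockouts and 8.24 and 10.52 in the controls. The log2 change was −2.95 ± 0.70 (95% confidence interval −4.69 to −1.21), the third lowest of 12142 rows tested, and did not pass the test over all rows (limma, adjusted p = 0.244). Leaving out control replicate 2 gave −1.81, leaving out control replicate 1 gave −4.09, and leaving out the background correction gave −2.15.

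IGKV3-2 was also lower on both knockout arrays and highest on control replicate 2. It had 116.4 and 102.3 in the knockouts, the second of them not above background, against 181.5 and 299.8 in the controls. The log2 change was −2.08 ± 0.61 (limma, adjusted p = 0.268), −1.30 without control replicate 2 and −2.85 without control replicate 1. Without background correction it was −0.90. In IGKV9-128 and IGKV3-2 the genotypes did not overlap.

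In the other 4 kappa rows the genotypes overlapped, and control replicate 2 was above control replicate 1 in each. IGKV9-120 had 143.1 and 146.6 in the knockouts, against 83.2 on control replicate 1, where it was not above background, and 778.0 on control replicate 2. Its knockout signals were therefore between those of the control pools, and its log2 change of −0.35 ± 1.59 became 2.30 without control replicate 2 and −3.01 without control replicate 1. IGKV8-31 had 93.9 and 156.3 in the knockouts and 132.3 and 421.0 in the controls, and its log2 change of −1.41 ± 1.18 became 0.06 when control replicate 2 was left out and −0.11 when knockout replicate 1 was. IGKV4-73 had 104.2 and 115.2 in the knockouts, both above background, against 88.4 on control replicate 1, which was not, and 224.3 on control replicate 2 (log2 change −0.65 ± 0.89, 0.79 without control replicate 2). IGKV1-88 had 87.4 and 117.7 in the knockouts and 86.6 and 107.0 in the controls, so it was detected in 1 pool of each genotype. Without background correction the log2 changes were −0.67 for IGKV9-120, −0.72 for IGKV8-31 and −0.35 for IGKV4-73.

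**Figure D2:**
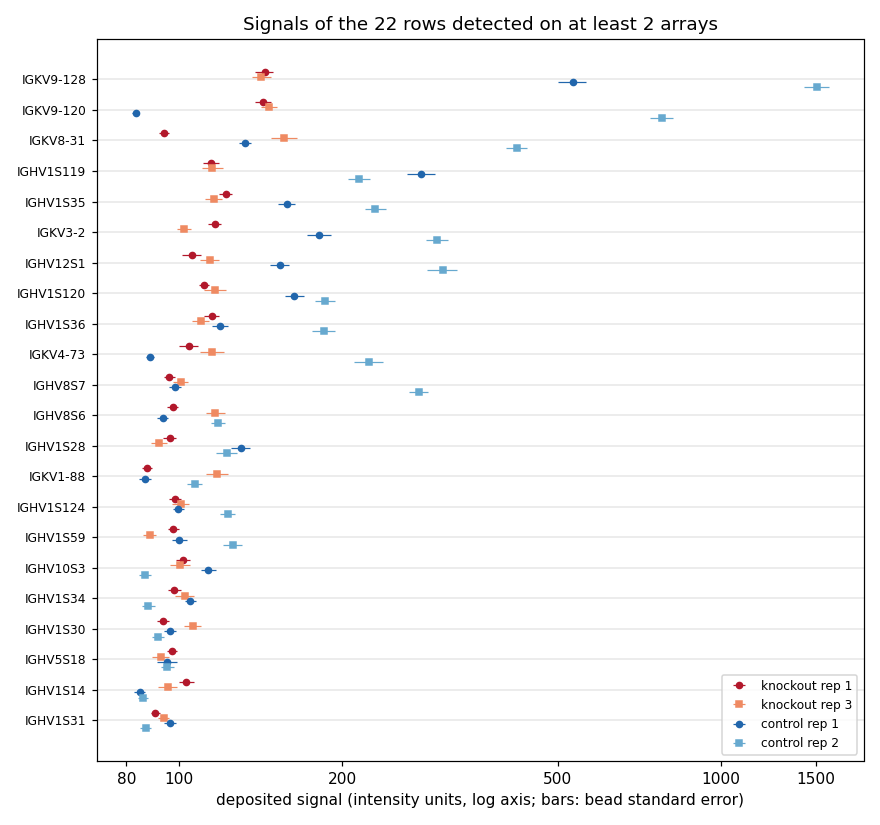
Deposited signal (horizontal log axis, intensity units) of the 22 rows detected on at least 2 arrays, with points for each array and bars for the bead standard error. IGKV9-128 lies at 143.9 and 142.0 on the knockout arrays and at 532.8 and 1505.1 on the control arrays, and IGKV9-120 at 143.1 and 146.6 on the knockout arrays and at 83.2 and 778.0 on the control arrays.

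Among the heavy chain rows IGHV1S119 differed most steadily. It had 114.6 and 115.3 in the knockouts and 280.3 and 215.0 in the controls, and was detected on all 4 arrays. On the log2 scale it was at 5.48 and 5.33 in the knockouts and at 7.12 and 7.10 in the controls, so that replicates of each genotype lay close together. The log2 change was −1.70 ± 0.20 (95% confidence interval −2.19 to −1.21), a 3.25-fold lower normalized level in the knockouts. Its adjusted p of 0.123 in limma was the lowest value over all rows, shared by 20 rows, and did not pass the threshold. Leaving out a control array hardly moved the change (−1.71 without control replicate 2, −1.70 without control replicate 1), and among the rows detected on all 4 arrays, where 7498 rows were tested, its adjusted p was 0.0337, within a range of 0.0265 to 0.611 over the alternatives tried. Without background correction the change was −0.78.

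IGHV1S28 also had controls that lay close together. It had 96.1 and 92.0 in the knockouts, neither above background, against 130.0 and 122.5 in the controls. It was 2.25-fold lower in the knockouts with a floor, meaning that each knockout value is set no lower than the lowest normalized value of any detected row on that array. Variable rows could go undetected above that floor, as IGHV1S134 did at a log2 value of 5.10 on knockout replicate 3. Folds taken with the floor are therefore not lower bounds. The fitted log2 change was −1.31 ± 0.21 (limma, adjusted p = 0.190), and −0.40 without background correction.

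4 further heavy chain rows were above background on both control arrays and on at least 1 knockout array, and had signals that were lower on both knockout arrays than on either control array. IGHV12S1 had 105.7 and 114.0 in the knockouts and 153.4 and 306.8 in the controls (log2 change −1.75 ± 0.62, −0.76 without control replicate 2). IGHV1S35 had 121.9 and 116.0 in the knockouts and 158.0 and 230.5 in the controls (log2 change −1.02 ± 0.45, −0.37 without control replicate 2). IGHV1S120 had 111.3 and 116.5 in the knockouts and 163.4 and 186.2 in the controls (log2 change −1.02 ± 0.29, −0.65 without control replicate 2). IGHV1S36 had 114.9 and 109.7 in the knockouts and 119.1 and 185.1 in the controls, and its normalized genotypes overlapped, with a log2 change of −0.85 ± 0.53 and of −0.10 without control replicate 2. The first 3 had no overlap of the genotypes, and in all 4 control replicate 2 had the highest signal. Without background correction the log2 changes were −0.80 for IGHV12S1, −0.47 for IGHV1S35, −0.41 for IGHV1S120 and −0.33 for IGHV1S36.

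IGHV8S7 was high in a single pool. It had 96.0 and 100.7 in the knockouts, neither above background, against 98.3 on control replicate 1 and 277.3 on control replicate 2. The level was 3.38-fold lower in the knockouts with the same floor. The fitted log2 change of −1.83 ± 0.91 was −0.34 without control replicate 2 and −0.76 without background correction. The fold thus rested on the single high pool and on the background correction. IGHV8S6, of the same family, had 97.5 and 116.8 in the knockouts and 93.4 and 118.0 in the controls, and was above background on knockout replicate 3 and control replicate 2 alone.

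The remaining named heavy chain rows had signals of at most 125.6 on any array. IGHV1S124 had 98.5 and 100.8 in the knockouts and 99.8 and 123.1 in the controls, and IGHV1S59 had 97.6 and 88.3 in the knockouts and 100.2 and 125.6 in the controls. Both were detected on both control arrays and on no knockout array, and were 1.70-fold and 1.78-fold lower in the knockouts with the same floor. Their fitted log2 changes of −0.82 and −0.96 were −0.34 and −0.45 without control replicate 2, and −0.23 and −0.31 without background correction. IGHV1S34, IGHV1S30 and IGHV5S18 had the same detection pattern and were 1.23-fold, 1.15-fold and 1.22-fold lower in the knockouts with that floor. Their deposited signals overlapped between the genotypes. IGHV1S34 had 98.1 and 102.6 in the knockouts and 105.0 and 87.8 in the controls. For IGHV1S30 they were 93.4 and 106.0 against 96.2 and 91.6, and for IGHV5S18 97.1 and 92.6 against 95.1 and 95.2. Without background correction their log2 changes were −0.08, −0.08 and −0.13. IGHV10S3 had 101.8 and 100.6 in the knockouts and 113.3 and 86.6 in the controls, which overlapped after normalization. IGHV1S14 and IGHV1S31, added here after their values were seen because they complete the 22 rows, differed in detection. IGHV1S14 had a log2 change of 0.17 ± 0.27, and IGHV1S31, not above background in the knockouts, was 1.11-fold lower there with that floor. The deposited signals of IGHV1S31 overlapped, at 90.5 and 93.7 in the knockouts and 96.3 and 86.9 in the controls. Its log2 change without background correction was −0.14.

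Over the 22 tested rows, 0 passed an adjusted p of 0.05 in limma, as did 0% of the 12142 rows tested. At an unadjusted p under 0.05, 7 rows were lower in the knockouts and 0 higher, where 8.74% of all tested rows were lower and 6.45% higher. After normalization, both knockout arrays were below both control arrays in 14 rows, 12 IGHV and 2 IGKV, and above them in 0. The shares over all tested rows were 28.1% and 21.9%. Among the 14, the deposited signals of the genotypes overlapped in IGHV8S7, IGHV1S124, IGHV1S34, IGHV1S30, IGHV5S18 and IGHV1S31. The median log2 change was −0.84, with a range from −2.95 to 0.17, against −0.04 over all tested rows, and was −0.34 without background correction, where the range was −2.15 to 0.05. 8 of the 22 rows entered through the control arrays alone and so had to differ, and these counts and the median describe the rows without supporting a difference. Over all 73 rows, most of them at background, the median change was −0.02.

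The control pools also differed from each other. Control replicate 2 was above control replicate 1 in 18 of the 22 rows and by at least 1 log2 unit in 11, where the shares over all tested rows were 43.9% and 3.02%. The median difference between the control arrays was 0.99 on the log2 scale for these rows and −0.05 for all tested rows. Each of the 22 rows was detected on control replicate 2, and 17 of them on both control arrays. Detection on control replicate 2 thus counted toward the filter in each row, and these counts and this median describe the rows without supporting a difference. Knockout replicate 3 was above knockout replicate 1 in 9 of the 22 rows and below it in 13. Without control replicate 2 the change was below 0 in 16 rows and above 0 in 6, with a median of −0.35, and without control replicate 1 it was below 0 in 21, with a median of −1.43.

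**Figure D3:**
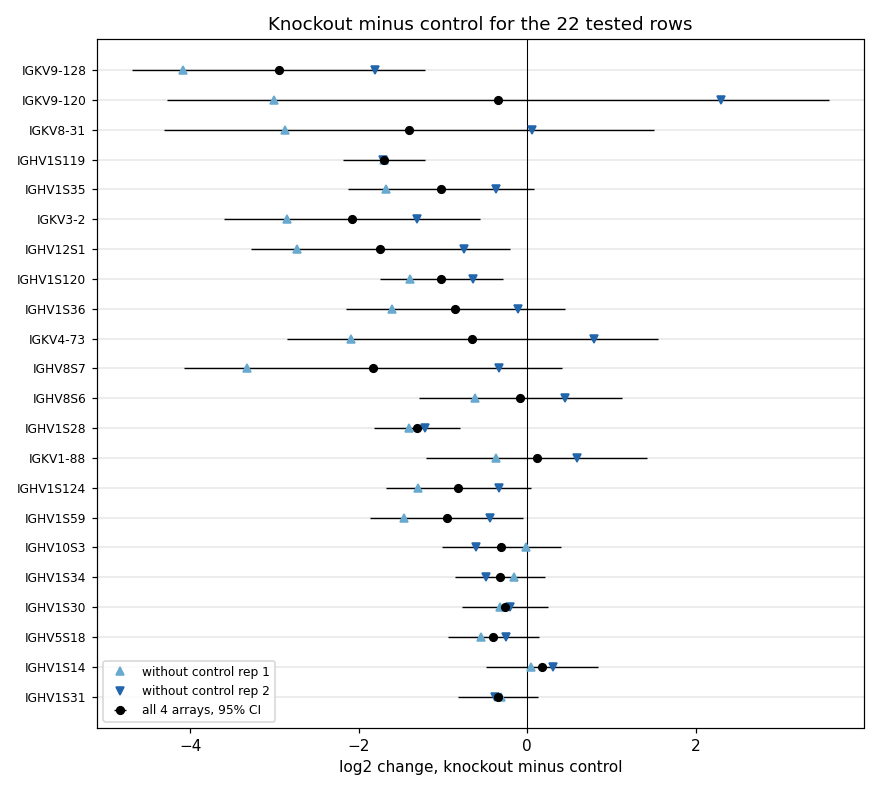
Log2 change, knockout minus control (horizontal axis), of the 22 tested rows with 95% confidence intervals from limma on all 4 arrays, and the change without each control array. IGHV1S119 stays at −1.70 to −1.71 in all 3, whereas IGKV9-120 moves between −3.01 and 2.30.

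Summed over all 73 rows, the signal above the median of the negative control probes was 220.8 and 250.6 in the knockouts, against 1198.7 and 4101.3 in the controls. The heavy chain rows gave 72.1 and 33.5 in the knockouts and 602.9 and 1145.0 in the controls, and the kappa rows 148.7 and 217.1 in the knockouts and 595.8 and 2956.3 in the controls. Both sums were lower on both knockout arrays, and control replicate 2 exceeded control replicate 1 in both. For the 18 T cell receptor variable rows the sum was −14.0 and −14.7 in the knockouts and 46.0 and 15.0 in the controls. These sums use signals before normalization, and detection over all gene rows was also lower on the knockout arrays. No sum over all gene rows was taken, so an array-wide part of these differences cannot be told apart.

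The constant region transcripts Igkc, Ighm and Iglc2 had lower levels on both knockout arrays than on either control array, and none of the 3 passed the test. Igkc, the kappa constant region, had 3324.7 and 4526.0 in the knockouts and 8804.8 and 13689.3 in the controls, with a log2 change of −1.07 ± 0.43 (limma, adjusted p = 0.325) and of −0.57 without control replicate 2. Ighm, the constant region of IgM, had 1442.1 and 1776.4 in the knockouts and 3621.2 and 8551.2 in the controls, with a log2 change of −1.24 ± 0.58 (limma, adjusted p = 0.373) and of −0.39 without control replicate 2. Iglc2, a lambda constant region, had 223.7 and 240.4 in the knockouts and 474.3 and 559.9 in the controls (log2 change −0.74 ± 0.36, −0.29 without control replicate 2). In all 3 the genotypes did not overlap and control replicate 2 was highest. Igha, the constant region of IgA, had a log2 change of −0.58 ± 0.26, and Ighg1, of IgG1, was detected on control replicate 2 alone. Jchain, which links IgA and IgM monomers, was near background with a log2 change of 0.19 ± 0.22. Of 13 genes in the constant region list 6 had a row, 5 were tested, and 0 passed the adjusted threshold in either direction. At an unadjusted p under 0.05, 1 was lower and 0 higher, where 8.74% of all tested rows were lower and 6.45% higher.

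Genes of the surrogate light chain, which pairs with the heavy chain in B cell precursors before a light chain is made, were ordered differently. Igll1 had 396.0 and 129.2 in the knockouts and 1033.5 and 333.2 in the controls, with a log2 change of −1.33 ± 0.85, and of −0.09 without knockout replicate 3. Vpreb1 had 258.8 and 123.2 in the knockouts and 738.0 and 323.7 in the controls (log2 change −1.54 ± 0.66, −0.56 without knockout replicate 3). Vpreb3, named for its likeness to Vpreb1, had 244.1 and 126.1 in the knockouts and 459.5 and 318.0 in the controls (log2 change −1.12 ± 0.55, −0.25 without knockout replicate 3). In these 3 genes control replicate 1 was the highest array and knockout replicate 3 the lowest, whereas control replicate 2 was highest in Igkc and Ighm and above control replicate 1 in 18 of the 22 variable rows. Cd79b, a signalling chain of the B cell receptor, differed by −0.07 ± 0.25, within the spread between arrays, and Vpreb2 was detected on no array. Of the 4 tested genes of this list 0 passed the adjusted threshold.

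**Figure D4:**
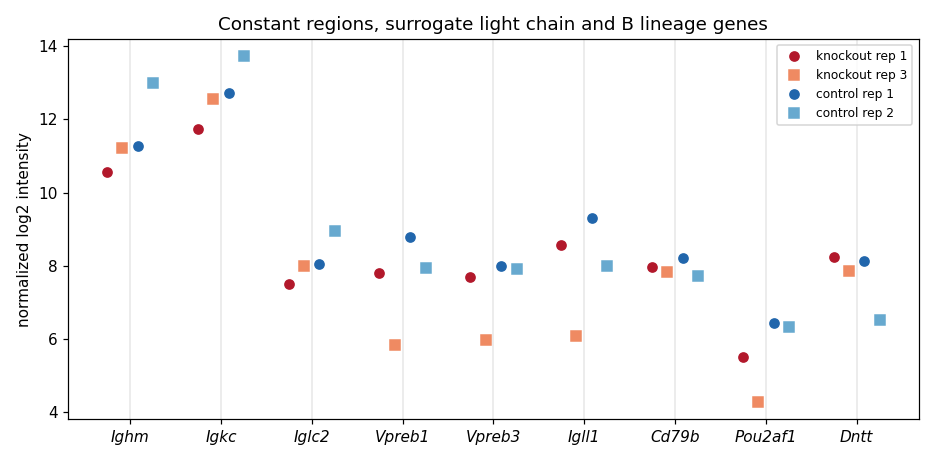
Normalized log2 intensity (vertical axis) of constant region, surrogate light chain and other B lineage genes on each array. Control replicate 2 is highest for Ighm, Igkc and Iglc2, while control replicate 1 is highest for Vpreb1, Vpreb3 and Igll1, and knockout replicate 3 is lowest for those 3.

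Genes of the recombination machinery had changes of both signs, and none passed the test. Rag1 and Rag2, which encode the recombinase, were near background, with log2 changes of −0.09 ± 0.24 and 0.17 ± 0.21. Dntt, the enzyme that adds bases at the joints, had 328.5 and 225.8 in the knockouts and 495.3 and 167.7 in the controls and overlapped between the genotypes, with a log2 change of 0.73 ± 0.53 and of −0.08 without control replicate 2. Xrcc6, a Ku subunit of DNA end joining, and Hmgb2, a chromatin protein that assists RAG, differed by 0.01 ± 0.20 and 0.36 ± 0.39. Of 16 genes in this list 10 were tested, with 3 changes below 0 and 7 above, and 0 passed the adjusted or the unadjusted threshold.

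Transcription factors of the B lineage were mixed. 8 of 10 tested members had changes below 0 and 2 above, and 0 passed the adjusted threshold. At an unadjusted p under 0.05, 2 were lower and 0 higher, where 8.74% of all tested rows were lower and 6.45% higher. The 2 were Pou2af1, a coactivator of octamer factors at immunoglobulin promoters (log2 change −1.49 ± 0.42, −0.87 without knockout replicate 3, −0.53 without background correction, adjusted p = 0.257 in limma), and Irf4, a factor of light chain recombination and plasma cells. Irf4 was not above background in the knockouts and was 1.78-fold lower there with the floor used for IGHV1S28, which gives no lower bound (adjusted p = 0.237 in limma). Without background correction the log2 change of Irf4 was −0.29. Both were singled out after their values were seen. Irf4, Ebf1 and Foxo1 entered the test through the control arrays alone, and Tcf3 through the knockout arrays alone. The filter thus favoured their direction, and the counts for this list describe it without supporting a difference. Irf4 had 93.6 and 95.8 in the knockouts and 113.6 and 111.5 in the controls, and Pou2af1 115.6 and 99.7 in the knockouts and 197.9 and 155.8 in the controls. Bcl11a and Bach2, factors of early B cell development, differed by −0.10 ± 0.24 and 0.37 ± 0.22.

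Markers of B cells and plasma cells were measured beside the variable rows, and their part in the signals above was not tested. Of the 14 B cell markers with a row, 4 were detected on no array, namely Ms4a1 (CD20), Cd22, Fcer2a (CD23) and Cr2 (CD21). Their summed normalized level was 718.1 and 645.9 in the knockouts and 937.9 and 734.3 in the controls. Cd72, a B cell surface receptor, differed by −0.26 ± 0.27. All 8 tested B cell markers had changes below 0, 1 at an unadjusted p under 0.05, as had 8.74% of all tested rows, and 0 past the adjusted threshold. Ebf1 and Blk entered the test through the control arrays alone, so the filter favoured their direction. The share of all tested rows with a change below 0 was not taken, so the count of 8 supports no difference. The 15 plasma cell markers summed to 3675 and 3824 in the knockouts and 3100 and 3278 in the controls, with Prdm1 and Eaf2 detected on no array, and Xbp1 and Txndc5, 2 secretory pathway genes, at 0.26 ± 0.20 and 0.38 ± 0.24. Of the 10 tested, 4 had changes below 0 and 6 above, so the sum and the members did not go one way. Without overlap, 4 were lower and 3 higher in the knockouts, where the shares over all tested rows were 28.1% and 21.9%. Of the 4 lower, Sdc1 and Irf4 entered the test through the control arrays alone. Sdc1 (CD138), a defining plasma cell marker, had 96.8 and 99.2 in the knockouts, neither above background, against 96.1 and 91.3 in the controls, both above it. After normalization it was 1.18-fold lower in the knockouts with the floor used for IGHV1S28, which gives no lower bound.

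Lists for other cell types gave 0 genes past the adjusted threshold each. Summed normalized levels were 663 and 529 in the knockouts and 648 and 650 in the controls for T cell markers, with Cd8a, Trac and Thy1 detected on no array and Lck at −0.69 ± 0.26. They were 2711 and 4009 in the knockouts and 1681 and 1788 in the controls for NK cell markers (Nkg7 1.24 ± 0.28, Prf1 −0.17 ± 0.70). Without Nkg7 the NK sums were 373 and 416 in the knockouts and 309 and 692 in the controls, and 3 of the 5 tested members had changes below 0. Of these 3, Klrk1 and Prf1 entered the test through the control arrays alone. The sums were 856 and 817 in the knockouts and 917 and 959 in the controls for macrophage and plasmacytoid dendritic cell markers (Bst2 −0.50 ± 0.32, Tcf4 detected on no array). Thy1 and Tcf4 counted as undetected by their detection p alone. Thy1 had signals of 235.3 and 185.4 in the knockouts and 268.4 and 216.0 in the controls, and Tcf4 339.4 and 269.5 in the knockouts and 563.5 and 503.7 in the controls. They are therefore not shown to be absent. Neutrophil markers stood apart on knockout replicate 1, at 16358, with 1089 on knockout replicate 3, against 1572 and 4566 in the controls (S100a8 0.36 ± 1.23, S100a9 0.47 ± 1.45). Erythroid markers were at 2592 and 8005 in the knockouts and 4475 and 3758 in the controls (Hba-a1 0.69 ± 0.77, Hbb-b1 0.80 ± 0.46). Of the 8 tested erythroid markers 5 had changes above 0 and 3 below, and the 3 below, Car1 (−2.36), Klf1 (−0.65) and Epor (−0.57), named after their values were seen, were at an unadjusted p under 0.05 while 0 of the others were. Over all tested rows 8.74% were lower and 6.45% higher at that threshold. Markers of the sorted fraction itself were at 3881 and 3492 in the knockouts and 5220 and 7690 in the controls, with Ly6a, which encodes Sca-1, at −0.20 ± 0.34 and Gata2, a stem cell factor, at −1.18 ± 0.30, and Procr detected on no array. Control replicate 2 had the highest sum for the variable rows and the constant region and stem cell lists. It was also highest for the B lineage transcription factor list and the macrophage and plasmacytoid dendritic cell list. Control replicate 1 was highest for the B cell list and the surrogate light chain list. Among single variable rows, IGHV1S119 and IGHV1S28 had their highest signal on control replicate 1. What sets these orders was not tested.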

How the data were processed

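Total RNA of sorted LSK cells was amplified to biotinylated cRNA and hybridised to Illumina bead arrays, 1 per pool, per the labels' protocols. Neither the array model nor the program that summarised the beads is named in the labels or headers. The deposited table held intensity values per gene name, not background-subtracted or normalized between arrays per the file headers, with a detection p-value and a bead standard error, deposited as a signal in intensity units. There were 30854 gene rows and 936 negative controls, and 1 row overwritten by annotation text was left out. A second deposited value table has probe identifiers that no table used here pairs with genes, and was not used. For all 73 variable rows and all 4 arrays the detection p was a whole multiple of 1/936 (tolerance 0.01) and equalled the share of negative control probes at or above the row's signal (tolerance 0.003). Rows of other genes can combine several probes, and then a high signal can carry a detection p above 0.05. Each variable row had 33 to 69 beads per array.

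Signals were background-corrected with the negative control probes (offset 16), quantile-normalized and taken to log2 with neqc of limma 3.58.1 in R 4.3.3. Rows with a detection p under 0.05 on at least 2 of 4 arrays were tested, 12142 in all, each row separately, with lmFit and eBayes (knockout minus control, two-sided), adjusted by the Benjamini-Hochberg method over all of them, threshold 0.05. Errors of log2 changes are standard errors of this model (3.71 prior degrees of freedom) with 2 arrays per genotype, each a separate pool of mice. The number of arrays limits the precision. The model was tested on simulated data. Gene names followed RefSeq symbols, GRCm38.p6, used for names and order alone, and 130 of 140 list genes had a row. The members and lists were chosen with earlier results of these data known. Named rows were the 20 tested variable rows with the highest mean. Further names were the constant region, surrogate light chain and recombinase genes, Dntt, Mybl2, and the 2 members of each other list with the highest mean. Alternatives changed the background correction, normalization, filter, variance model and arrays used.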

Additional observations from a re-analysis of the deposited data

How the results depend on the processing

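With a detection p under 0.01, knockout replicate 3 had 4 detected variable rows in place of 11. Of the 22 rows tested, 0 passed the adjusted threshold on all 4 arrays, without background correction, with cyclic loess, with the trend and robust variance model, or with any 1 array left out (0 to 0). Median scaling, with a median of −0.70 over all rows, gave 7, all lower, 12 list genes and 985 of 12142 rows. Restricting to rows detected on all 4 arrays gave 1, IGHV1S119, with 1 list gene and 17 of 7498 rows, a median of −1.70 over 5 rows, and 5 rows lower without overlap, as were 22.8% of all rows. With no filter the median over 73 rows was −0.024 and 34 rows did not overlap, 22 lower and 12 higher in the knockouts, against 22.3% and 20.8% of all rows. The trend and robust model gave 2 list genes and 15 of 12142 rows past the threshold. Leaving out 1 array at a time gave medians of −1.43 to −0.35 and 17 to 19 rows without overlap, of which 15 were lower and 3 higher without control replicate 2, against 41.4% and 30.8% of all rows, and 19 lower and 0 higher without control replicate 1, against 39.2% and 35.5%. For these changes the cause was not tested.

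Some named rows turned direction. With cyclic loess these were IGKV9-120 (0.0031), IGHV8S6 (0.012), Rag1 (0.028) and Xrcc6 (−0.037). With median scaling they were IGKV1-88 (−0.31), Dntt (−0.24), Xrcc6 (−0.77), Hmgb2 (−0.54), Bach2 (−0.53), Xbp1 (−0.43), Txndc5 (−0.43), S100a8 (−0.36), S100a9 (−0.28) and Hba-a1 (−0.028), most of them above the −0.70 of all rows. Leaving out 1 array at a time moved IGKV9-120 over −3.01 to 2.30, IGKV8-31 over −2.87 to 0.059, IGKV4-73 over −2.10 to 0.79, IGHV8S6 over −0.62 to 0.45, IGKV1-88 over −0.57 to 0.79 and IGHV1S14 over −0.12 to 0.46. Outside the variable rows the ranges were −0.32 to 0.18 for Cd79b, −0.26 to 0.081 for Rag1, −0.078 to 1.54 for Dntt, −0.078 to 0.11 for Xrcc6, −0.18 to 0.90 for Hmgb2, −0.27 to 0.069 for Bcl11a and −0.59 to 0.065 for Cd72. They were −1.28 to 0.94 for Prf1, −1.57 to 2.29 for S100a8, −1.77 to 2.71 for S100a9, −0.55 to 1.93 for Hba-a1, −0.67 to 0.28 for Ly6a, −0.52 to 0.15 for Mybl2, −1.70 to 1.02 for IGK-V5 and −2.36 to 1.51 for IGK-V38. Over the named rows and genes, 511 comparisons with an alternative kept direction and side of the threshold, 45 turned direction and 16 newly passed. No paired analysis was possible because the genotypes share replicate number 1 alone. Most variable rows lay near background, which limits their changes.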

Other observations

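A further 12 variable segment rows carry older names with a hyphen and so fall outside the prefixes used above. They were looked at after their values were seen. IGH-V11 had 136.2 and 148.0 in the knockouts and 395.7 and 1237.5 in the controls, so that both knockout arrays were below both control arrays as for IGKV9-128, with a log2 change of −2.56 ± 0.78 that did not pass the test (limma, adjusted p = 0.270) and was −1.30 without control replicate 2. IGH-VJ558, named for the large IGHV1 family, had 1373.9 and 1434.1 in the knockouts and 4016.2 and 5426.8 in the controls (log2 change −1.24 ± 0.37, −0.74 without control replicate 2). IGL-V1, an older name of the lambda segment Iglv1 in RefSeq, had 2997.5 and 712.9 in the knockouts and 6375.9 and 2796.5 in the controls, so control replicate 1 was highest and knockout replicate 3 lowest, as in Igll1. IGK-V5 had 111.5 and 175.7 in the knockouts and 119.9 and 329.4 in the controls. IGK-V38, an older name of Igkv19-93, had 103.8 and 149.4 in the knockouts and 87.1 and 358.6 in the controls. In both, knockout replicate 3 and control replicate 2 were the higher arrays of their genotypes, which was also the case for IGKV8-31, IGKV1-88 and IGHV8S6.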
